A study of Mus musculus with 20 samples.

Results

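Small nucleolar RNAs (snoRNAs) and small Cajal body RNAs (scaRNAs) were examined in hearts of mice in which tafazzin, the enzyme that remodels cardiolipin in the inner mitochondrial membrane, was knocked down. Members were selected on their level: a gene was taken when GENCODE annotates it as snoRNA or scaRNA and its counts summed to at least 100 over the 10 heart libraries. This gave 81 of the 1558 annotated snoRNA and scaRNA genes in the heart table, namely 71 of 1507 snoRNAs and 10 of 51 scaRNAs, and 77 of the 81 passed the filter for testing. The 4 members not tested were Gm24044, Gm22771, Snora47 and Gm26109. The summed counts chose the members, so levels are given as a description. Among the remaining annotated genes, 971 had no count and 506 had 1 to 99 counts. Just inside the limit were Gm27653, Gm22362 and Snora47, each with 101 counts, and just outside were Gm24091, Gm24338, Gm23951 and Gm22213, each with 99 counts. The log2 fold change of Taz-KD over WT was -0.09 for Gm27653, -0.10 for Gm22362, -0.39 for Gm24091 and -0.09 for Gm24338, and the other 3 were not tested.

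The hearts came from 5 Taz-KD mice, which carry a doxycycline-inducible short hairpin RNA against Taz (ROSA26H1/tetO-shRNA:TAZ), and from 5 WT mice on the C57BL/6N background. All mice of both genotypes received doxycycline chow at 625 mg/kg and were 20 weeks old. Each library held the RNA of 1 mouse. The hairpin is driven by an H1 promoter at the ROSA26 locus and is not restricted to cardiomyocytes. Femur muscle of 5 Taz-KD and 5 WT mice, which were other animals, was sequenced in the same series. Per the protocol given with the series, total RNA was depleted of ribosomal RNA, and read pairs of 150 bp were counted per gene. The heart libraries held abundant RNA without a poly(A) tail, whereas the muscle libraries held almost none (values are given with the muscle results).

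Taz averaged 11.7 ± 0.731 CPM (counts scaled to library size with TMM factors) in Taz-KD hearts and 37.8 ± 1.4 CPM in WT hearts (SD, n = 5 each), a log2 fold change of -1.70 (SE 0.06, edgeR quasi-likelihood test, adjusted p = 4.08e-09). The exact two-sided permutation test on the Taz level gave p = 0.00794, the smallest that it allows with 5 against 5 hearts. Total counts were 30248445 to 35301909 in Taz-KD libraries and 26963288 to 30090918 in WT libraries, so every Taz-KD library was deeper than every WT library. Of 13 lists of cell type markers, the skeletal muscle list had a higher summed level in Taz-KD hearts without overlap. It ran from 534 to 1494 CPM in Taz-KD hearts and from 36.9 to 385 CPM in WT hearts. Of its 6 genes 3 were tested and 1 was called higher. The log2 fold changes of the tested genes ran from -0.29 to 1.82, with 2 above and 1 below 0. The sum thus does not describe every gene of the list. The erythroid list ran from 289 to 457 CPM in Taz-KD hearts and from 421 to 741 CPM in WT hearts, with 3 of 5 genes called lower. The endothelial list had 2 of 5 genes called lower, and the cardiomyocyte, smooth muscle and proliferation lists had 1 each. The fibroblast, macrophage, lymphocyte, adipocyte, neuron, Schwann cell and atrium lists had none. The 3 atrium genes nevertheless had log2 fold changes of 2.07 to 2.61. Their sum ran from 1.80 to 161 CPM in Taz-KD hearts and from 1.46 to 36.0 CPM in WT hearts, so alike levels were not shown for this list. The cardiomyocyte markers summed to 38300 to 52362 CPM in Taz-KD hearts and 40127 to 54230 CPM in WT hearts, so the defining markers of the labelled tissue were present at high level in every heart. The part of other cell types in the changes below was not tested, and in whole hearts fewer cells of a type cannot be told apart from less RNA per cell.

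SnoRNAs guide chemical changes of ribosomal RNA in the nucleolus. Box C/D snoRNAs carry a C box and a D box and direct ribose methylation by fibrillarin, whereas box H/ACA snoRNAs end in an ACA box and direct the conversion of uridine to pseudouridine by dyskerin. ScaRNAs carry the same boxes, reside in Cajal bodies and guide the modification of spliceosomal RNAs. Most mammalian snoRNAs lie in introns of protein-coding or non-coding host genes, many of which make ribosomal proteins or translation factors, and are trimmed out of the intron after splicing. They have no poly(A) tail, so they are seen in RNA depleted of ribosomal RNA but hardly in RNA selected for poly(A).

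By symbol or gene type, 11 members were scaRNAs, 6 were box C/D snoRNAs and 8 were box H/ACA snoRNAs, while 56 were predicted gene models without an assigned name. ScaRNAs held most counts. The 81 members summed to 79359 counts, of which Scarna2, a long scaRNA that in humans is transcribed from its own promoter, held 44.3%. Together with the scaRNAs Gm22009 (in Kpna4) and Gm25395 (in Atg16l1) it held 68.6%. The 9 members of 200 or more bases held 73.0%, whereas the median member had 177 counts over all 10 libraries. At least 1000 counts were reached by 7 members, and precision was limited for the others. The median SE of the log2 fold change was 0.28 over tested members and 0.13 over all genes tested.

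Per kilobase of annotated length, Scarna2 averaged 307 CPM in Taz-KD hearts and 238 CPM in WT hearts. The predicted model Gm23455 followed with 170 CPM per kilobase in Taz-KD hearts and 81.1 in WT hearts, then Gm22009 with 121 in Taz-KD hearts and 116 in WT hearts, and Gm25395 with 82.9 in Taz-KD hearts and 76.9 in WT hearts. The most abundant box H/ACA member was Snora73b, a snoRNA of the U17 family that takes part in cleavage of the ribosomal RNA precursor, at 26.0 CPM per kilobase in Taz-KD hearts and 14.4 in WT hearts. Among box C/D members Snord17 led with 9.19 CPM per kilobase in Taz-KD hearts and 8.90 in WT hearts. It was followed by Snord104, Snord71, Snord91a and Snord53, all between 5.43 and 8.85 CPM per kilobase over the 10 hearts. After Snora73b came Snora28, Snora17, Snora30 and Snora2b, between 3.62 and 12.1 CPM per kilobase. Length and level per kilobase were weakly related across the 81 members (Spearman's rho = -0.22, which shares the libraries and the length itself). The median member was 132 bases long, shorter than a read of 150 bp, and 72 of the 81 members were under 200 bases. Whether short and long RNAs were recovered alike was not tested, so these levels describe the libraries.

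**Figure D1:**
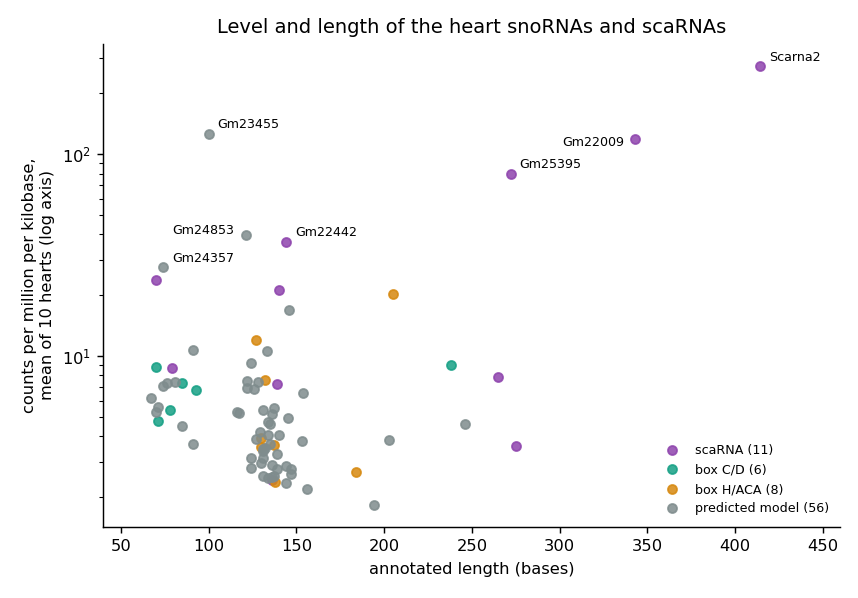
Level of the 81 members in CPM per kilobase (mean of 10 hearts, log axis) against annotated length in bases, coloured by class. Scarna2, Gm22009 and Gm25395 are long and abundant, Gm23455 is abundant at 100 bases, and most predicted models lie below 10 CPM per kilobase.

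The leading members of the box C/D and box H/ACA classes are shown with the boxes found by an exact search on the RNA strand. Capitals mark the C box core TGATGA and the last D box CTGA in Snord17, and the ACA of the last 6 bases in Snora73b. Snord17 lies on the minus strand at chr2:144265979-144266216, in an intron of Snx5, and Snora73b on the minus strand at chr4:132352322-132352526, in an intron of Rcc1 (GRCm38, GENCODE M21).
Snord17: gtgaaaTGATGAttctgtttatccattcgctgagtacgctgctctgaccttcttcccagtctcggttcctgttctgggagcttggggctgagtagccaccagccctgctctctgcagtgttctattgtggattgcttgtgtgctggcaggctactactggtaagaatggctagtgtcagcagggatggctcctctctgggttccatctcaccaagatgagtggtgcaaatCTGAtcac
Snora73b: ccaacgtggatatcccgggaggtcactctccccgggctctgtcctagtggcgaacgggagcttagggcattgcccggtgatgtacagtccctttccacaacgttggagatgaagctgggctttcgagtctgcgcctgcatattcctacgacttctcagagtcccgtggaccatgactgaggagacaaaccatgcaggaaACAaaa

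The position of a model bore on what its count could hold. Among all annotated models that lie only in introns of genes above 5 CPM per kilobase, 62 lie on the strand opposite to the gene and had a median of 1.78 CPM per kilobase, against 1.77 CPM per kilobase for the 122 on the same strand, and none of either was at 0. Outside the snoRNAs, Gm37376, which lies inside an exon of the abundant nuclear RNA Malat1 on the other strand, measured 3384 CPM per kilobase, and Malat1 itself 2603. Hence an opposite strand did not lower the count of a model in these libraries, although the kit marks the strand, and reads of the gene around a model cannot be told apart from its own RNA. The highest of the 62 opposite-strand intron models reached 6.92 CPM per kilobase, and 27 of the 81 members lay above it. The 6 models wholly inside an opposite-strand exon of a gene above 2 CPM per kilobase ran higher, with a median of 6.13 and a highest of 39.5. The limit of 6.92 therefore does not cover members with such an exon over them, among them Gm24853, Gm25767 and Snora73b. Of the 7 members called below, Gm23455, Gm22579 and Gm24233 were among the 27. Exons of the host Taf1d overlap Gm23455 and Gm22579, and the limit does not cover models with a same-strand exon over them either. Gm24233 averaged 5.69 CPM per kilobase in Taz-KD hearts, below the limit, and 9.33 in WT hearts. Conversely, of 71 models wholly inside an exon of a same-strand gene above 2 CPM per kilobase, 58 had no count, among them Snord14c, Snord14d and Snord14e in Hspa8. Therefore a snoRNA absent from the 81 members is not shown to be absent from the heart.

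The main comparison was Taz-KD against WT. In Taz-KD hearts 5 members rose, 2 fell and 70 did not pass the test (edgeR, adjusted p under 0.05 over all 19486 genes tested). Among all genes tested, 14.4% rose and 10.3% fell. Among the 6452 tested genes with 100 to 1000 counts, whose depth is closer to that of most members, 5.89% rose and 5.36% fell, and of the 70 tested members with 100 to 1000 counts 4 rose and 2 fell. The number of members that rose was thus near this background. The median log2 fold change was 0.06 over tested members and -0.02 over all genes tested. At an unadjusted p under 0.05 there were 12 of 77 members, beside 7110 of the 19486 genes tested and 1354 of the 6452 genes with 100 to 1000 counts. The libraries of the genotypes did not overlap for 4 members that were higher and 1 that was lower in Taz-KD hearts, against 11.3% and 7.05% of all genes tested. Within 100 to 1000 counts this held for 3 higher and 1 lower of the 70 tested members. Beside them stood 275 higher and 241 lower of the 6452 genes. All 7 called members were predicted models. DESeq2 called 8 members higher, adding Scarna2, Gm22442 and Snora73b to the 5 of edgeR, and 2 lower.

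**Figure D2:**
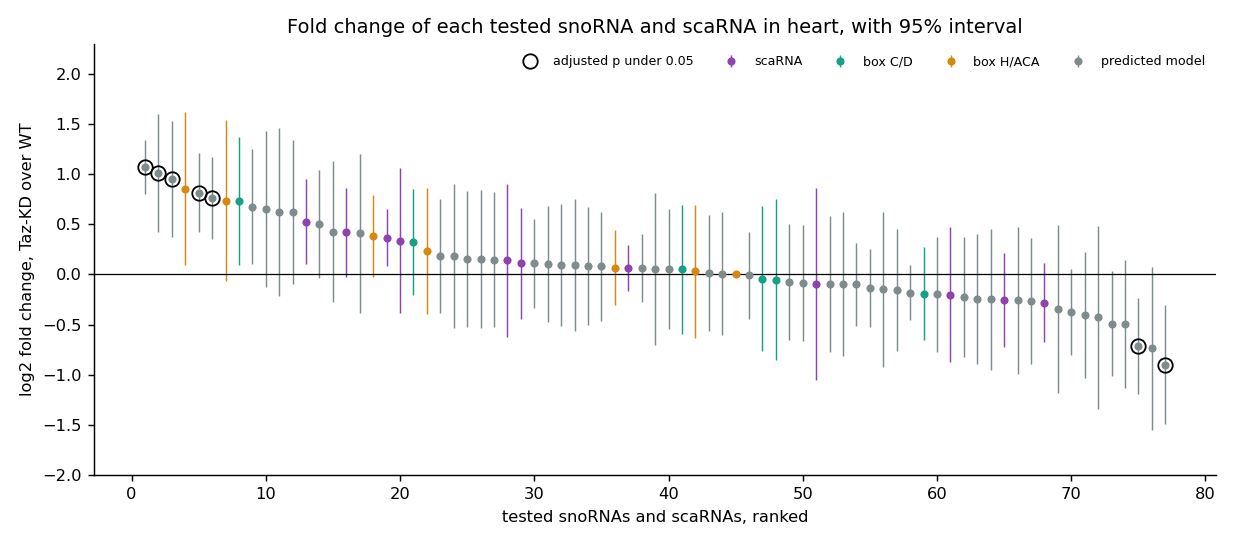
Log2 fold change (Taz-KD over WT) of each of the 77 tested members, ranked, with the 95% interval and coloured by class. Circled points passed the adjusted p of 0.05, namely 5 higher and 2 lower, and the intervals of most other members include 0.

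Of the 5 members that rose, 3 lie in Taf1d, which encodes a TBP-associated subunit of the selectivity factor that places RNA polymerase I on the ribosomal RNA gene. Taf1d held 5 of the 81 members, and no other gene held more than 2. Their sequences are shown in the order in which they lie on the plus strand of chromosome 9 (GRCm38): Gm24455 at chr9:15313802-15313932, Gm24299 at chr9:15314074-15314144, Gm24357 at chr9:15315522-15315595, Gm23455 at chr9:15316489-15316588 and Gm22579 at chr9:15316676-15316808. Capitals mark the C box core and the D box in Gm24299 and Gm24357, and the ACA near the 3′ end in the others.
Gm24455: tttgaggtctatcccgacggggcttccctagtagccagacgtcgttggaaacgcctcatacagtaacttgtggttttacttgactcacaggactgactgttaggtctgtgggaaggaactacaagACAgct
Gm24299: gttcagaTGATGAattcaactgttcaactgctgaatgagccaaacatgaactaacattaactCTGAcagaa
Gm24357: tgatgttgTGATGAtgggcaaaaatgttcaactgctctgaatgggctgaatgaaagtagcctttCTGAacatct
Gm23455: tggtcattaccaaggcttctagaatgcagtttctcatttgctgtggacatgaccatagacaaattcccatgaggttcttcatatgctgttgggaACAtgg
Gm22579: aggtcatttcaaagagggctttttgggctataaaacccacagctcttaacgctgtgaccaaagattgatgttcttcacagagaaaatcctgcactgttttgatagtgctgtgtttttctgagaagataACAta
All 5 hold ACA in the last 6 bases, which in Gm24299 overlaps the D box, as did 58% of the 81 members and 46.5% of all 1558 annotated genes. TGATGA in the first 30 bases together with CTGA in the last 30 was found in 2 of the 5, in 14.8% of members and in 20.7% of annotated genes. A match describes the letters and does not show a functional box. RefSeq lists a snoRNA at 4 of the 5 places and a pseudogene at that of Gm23455.

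Gm23455 had 20.2, 16.5, 16.5, 13.1 and 18.9 CPM in Taz-KD hearts, against 6.70, 8.64, 7.99, 7.67 and 9.54 CPM in WT hearts. Every Taz-KD heart lay above every WT heart. The log2 fold change was 1.07 (SE 0.12, adjusted p = 6.43e-05), the largest rise among the tested members, and the model was called under all 20 alternative settings tried. Gm22579 had 1.87, 1.44, 1.89, 1.48 and 2.28 CPM in Taz-KD hearts, against 0.901, 0.977, 0.965, 1.30 and 0.937 CPM in WT hearts. The groups again did not overlap, and the log2 fold change was 0.82 (SE 0.18, adjusted p = 0.00571). Gm22579 has 3 near copies elsewhere among the annotated models, with 0, 20 and 26 counts in all, so its reads could be shared with them.

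Gm24455 had 0.684, 0.733, 0.932, 1.10 and 1.20 CPM in Taz-KD hearts, against 0.515, 0.714, 0.379, 0.280 and 0.520 CPM in WT hearts. The groups overlapped by a narrow margin, and the log2 fold change was 0.95 (SE 0.27, adjusted p = 0.0208). Without Taz-KD heart 5 its adjusted p was 0.0517, and without WT heart 3 it was 0.0528. The remaining 2 did not pass the test. Gm24357 averaged 2.49 ± 1.35 CPM in Taz-KD hearts and 1.59 ± 0.584 CPM in WT hearts (SD, n = 5 each), with a log2 fold change of 0.66 (adjusted p = 0.210) that was 0.26 without Taz-KD heart 3. Gm24299 averaged 0.455 ± 0.230 CPM in Taz-KD hearts and 0.340 ± 0.108 CPM in WT hearts (SD, n = 5 each), with a log2 fold change of 0.41 (adjusted p = 0.458) that was 0.10 without Taz-KD heart 1.

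Taf1d itself measured 9.79, 5.53, 7.84, 7.82 and 9.78 CPM in Taz-KD hearts, against 5.79, 8.31, 6.31, 6.02 and 7.22 CPM in WT hearts. The groups overlapped, and its log2 fold change of 0.28 (SE 0.16, adjusted p = 0.228) lay below the 95% intervals of Gm23455 (0.80 to 1.34), Gm22579 (0.43 to 1.21) and Gm24455 (0.37 to 1.53). The 95% interval of Taf1d itself, -0.06 to 0.62, overlapped those of Gm22579 and Gm24455 but not that of Gm23455. The difference between Taf1d and its models was not tested. Annotated exons of Taf1d overlap all 5 models, so reads of Taf1d RNA that keeps these stretches cannot be told apart from those of a released snoRNA. Another 3 models in Taf1d, Gm25500, Gm25791 and Gm22620, stayed below the limit with 12, 31 and 88 counts and were not tested. The neighbouring members Scarna9 and Gm24339, which lie on the other strand in Cep295, had log2 fold changes of 0.42 (adjusted p = 0.159) and 0.09 (adjusted p = 0.861).

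**Figure D3:**
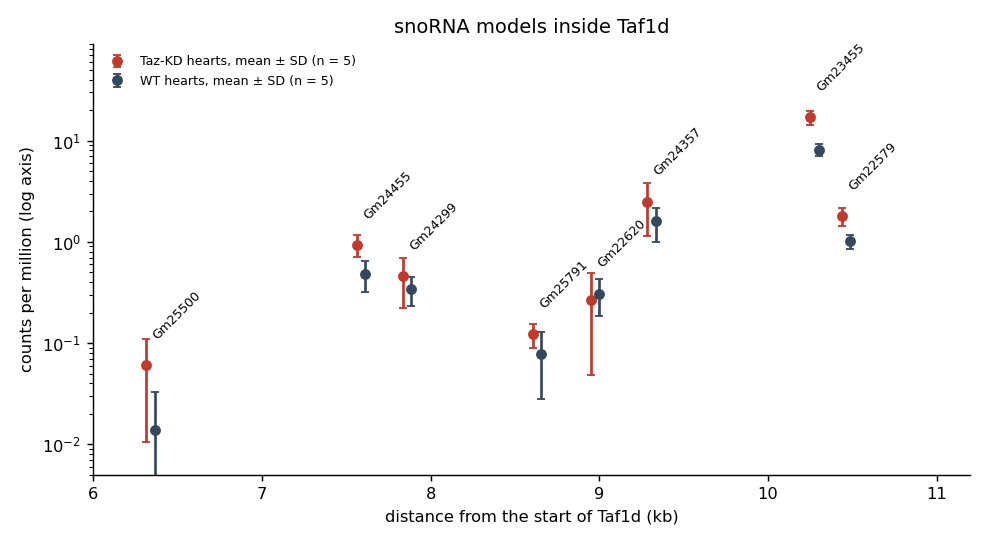
Mean CPM (log axis, bars show SD, n = 5 hearts each) of the 8 snoRNA models inside Taf1d, in Taz-KD and WT hearts, against the distance of each model from the start of Taf1d in kb. Gm23455 and Gm22579, about 10 kb in, are clearly separated between genotypes, while Gm25500, Gm25791 and Gm22620 are the models below 100 counts, and the lower WT bar of Gm25500 runs off the axis.

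The other 4 called members lie in introns or on the opposite strand of other genes. Their sequences are given because none has an assigned name or target. Capitals mark ACA in the last 6 bases where it was found. Gm23034 lies on the minus strand at chr9:108795242-108795388, Gm27991 on the minus strand at chr7:121040344-121040480, Gm24233 on the plus strand at chr12:59134072-59134193 and Gm22554 on the minus strand at chr10:36775785-36775931.
Gm23034: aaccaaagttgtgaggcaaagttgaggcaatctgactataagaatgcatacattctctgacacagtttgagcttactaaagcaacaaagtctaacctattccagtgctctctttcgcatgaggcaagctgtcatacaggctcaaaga
Gm27991: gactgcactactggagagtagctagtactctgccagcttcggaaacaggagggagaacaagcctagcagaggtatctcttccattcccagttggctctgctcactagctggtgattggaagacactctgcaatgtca
Gm24233: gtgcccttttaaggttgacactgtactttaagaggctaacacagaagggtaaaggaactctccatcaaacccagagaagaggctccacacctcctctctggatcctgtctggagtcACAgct
Gm22554: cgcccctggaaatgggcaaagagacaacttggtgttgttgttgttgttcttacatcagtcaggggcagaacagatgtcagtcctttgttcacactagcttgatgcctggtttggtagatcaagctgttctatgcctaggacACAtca

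Gm23034 had 0.622, 0.428, 0.408, 0.565 and 0.525 CPM in Taz-KD hearts, against 0.225, 0.338, 0.310, 0.245 and 0.139 CPM in WT hearts. All Taz-KD hearts lay above all WT hearts, with a log2 fold change of 1.01 (SE 0.27, adjusted p = 0.0162). Without Taz-KD heart 1 and WT heart 1 together it was not called (0.89, adjusted p = 0.0749). It lies in an intron of Ip6k2, an inositol hexakisphosphate kinase gene, on the opposite strand, and Ip6k2 rose as well, with 18.9 to 23.1 CPM in Taz-KD hearts and 13.5 to 17.3 CPM in WT hearts (log2 fold change 0.43, adjusted p = 0.00247). Gm27991 had 0.902, 0.886, 1.02, 0.911 and 1.05 CPM in Taz-KD hearts, against 0.708, 0.489, 0.517, 0.630 and 0.451 CPM in WT hearts. The groups did not overlap, with a log2 fold change of 0.76 (SE 0.19, adjusted p = 0.0104). An annotated exon of another gene also overlaps it. It lies opposite to Mettl9, a methyltransferase gene, which measured 60.9 to 64.8 CPM in Taz-KD hearts and 44.3 to 50 CPM in WT hearts (log2 fold change 0.41, adjusted p = 0.000107).

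Gm22554 had 0.404, 0.153, 0.262, 0.314 and 0.278 CPM in Taz-KD hearts, against 0.451, 0.677, 0.414, 0.595 and 0.520 CPM in WT hearts. The groups lay apart, by a small gap, with a log2 fold change of -0.90 (SE 0.27, adjusted p = 0.0305). It lies opposite to Hs3st5, a heparan sulfate sulfotransferase gene, which fell too, with 3.60 to 7.50 CPM in Taz-KD hearts and 6.92 to 10.8 CPM in WT hearts (log2 fold change -0.64, adjusted p = 0.0265). Each of these 3 models thus moved in the direction of the gene on its other strand, which itself passed the test. Over the 20 tested members with a gene only on the opposite strand, 13 had the sign of that gene's fold change (Pearson's r = 0.63, Spearman's rho = 0.48, all from the same 10 libraries). Among those genes 5 were called higher and 4 lower.

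Gm24233, in an intron of Mia2, a gene of protein export from the endoplasmic reticulum, had 0.808, 0.489, 0.495, 0.722 and 0.957 CPM in Taz-KD hearts, against 1.29, 1.28, 0.930, 1.16 and 1.04 CPM in WT hearts. The groups overlapped slightly, with a log2 fold change of -0.71 (SE 0.22, adjusted p = 0.0333). Mia2 had a log2 fold change of 0.11 (adjusted p = 0.473), above the 95% interval of Gm24233 (-1.19 to -0.23). A near copy, Gm22786, had 68 counts. Both falls rested on few counts, 277 for Gm24233 and 122 for Gm22554, and neither passed the test without Taz-KD heart 2 or 3 or without WT heart 2 or 4. Without Taz-KD heart 2 the adjusted p was 0.0760 for Gm24233 and 0.0664 for Gm22554. Gm24233 was also lost without Taz-KD heart 4 or WT heart 1, and Gm22554 without Taz-KD heart 5 or WT heart 5.

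**Figure D4:**
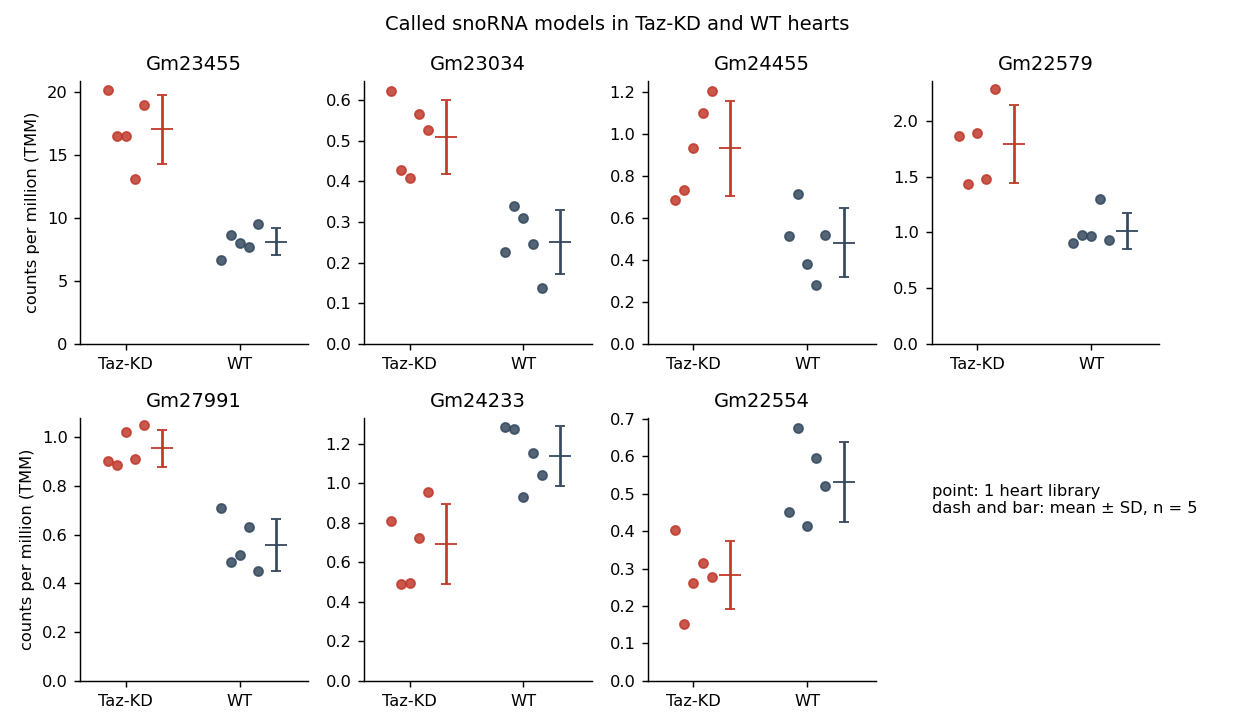
CPM of the 7 called models in each of the 5 Taz-KD and 5 WT hearts (points), with mean ± SD beside them. For Gm23455, Gm23034, Gm22579, Gm27991 and Gm22554 the genotypes lie apart, and for Gm24455 and Gm24233 the ranges overlap.

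The abundant scaRNAs did not pass the test in edgeR. Scarna2 had 111, 127, 164, 100.2 and 134 CPM in Taz-KD hearts, against 119, 90.2, 87.1, 91.9 and 105 CPM in WT hearts. Only WT heart 1 and 5 reached into the range of Taz-KD hearts, and the log2 fold change was 0.37 (SE 0.13, adjusted p = 0.0572). Without Taz-KD heart 4 the adjusted p was 0.0205, without WT heart 1 it was 0.0259, and DESeq2 gave 0.0377. Gm22009 measured 35.7 to 51.3 CPM in Taz-KD hearts and 33.2 to 45.2 CPM in WT hearts, with a log2 fold change of 0.07 (SE 0.10, adjusted p = 0.698). Its 95% interval, -0.16 to 0.29, was the narrowest among the 3 most abundant members. Gm25395 measured 13.8 to 36.3 CPM in Taz-KD hearts and 15.9 to 26.8 CPM in WT hearts, with a log2 fold change of 0.11 (adjusted p = 0.794) that was -0.13 without Taz-KD heart 3. Gm22442, in an intron of the chromatin remodeller gene Chd3, measured 4.33 to 8.36 CPM in Taz-KD hearts and 3.15 to 5.28 CPM in WT hearts, with a log2 fold change of 0.52 (adjusted p = 0.0698), and Chd3 itself rose (0.62, adjusted p = 0.00325). Scarna9 measured 1.51 to 2.59 CPM in Taz-KD hearts and 0.977 to 1.77 CPM in WT hearts. Over the 11 scaRNAs the median log2 fold change was 0.11, with 7 above and 4 below 0, and the remaining ones include Gm23119 (0.34, adjusted p = 0.504), Scarna17 (-0.20, adjusted p = 0.684) and Gm24644 (-0.25, adjusted p = 0.431).

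Among the predicted models outside Taf1d, Gm24853 was the most abundant per kilobase. It lies inside an exon of Synj2bp on the opposite strand and measured 3.67 to 5.71 CPM in Taz-KD hearts and 4.38 to 5.48 CPM in WT hearts (log2 fold change -0.18, adjusted p = 0.333). Gm24336, in an intron of Cwf19l1, had a log2 fold change of 0.18 (adjusted p = 0.732), and Gm24401, in an intron of Pcdhgb2, had 0.06 (adjusted p = 0.930).

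Named box C/D and H/ACA snoRNAs were likewise not called by edgeR. The 7 tested H/ACA members had a median log2 fold change of 0.23. Of these, Snora2b lay at 0.00, and Snora2b (-0.16 to 0.22) and Snora28 (-0.05 to 0.14) changed sign between settings. Of the 6 box C/D members 3 lay above and 3 below 0, with a median of 0.00. Snora73b had 2.89, 3.73, 10.7, 3.49 and 5.93 CPM in Taz-KD hearts, against 2.99, 3.04, 2.0, 2.80 and 3.92 CPM in WT hearts. Its log2 fold change was 0.86 (SE 0.35, adjusted p = 0.0990), and Taz-KD heart 3 held the highest value. Without that heart the log2 fold change was 0.44 (adjusted p = 0.207). DESeq2 on all 10 hearts gave an adjusted p of 0.0402. Its near copy Snora73a had 11 counts. An exon of Gm17300 on the opposite strand overlaps Snora73b. In edgeR Gm17300 had a log2 fold change of 0.62 (adjusted p = 0.0542), and the host Rcc1 had 0.04 (adjusted p = 0.839). Reads of Gm17300 cannot be told apart from those of Snora73b, and their part in its counts was not tested. Snord17 had 1.43, 1.68, 4.34, 1.95 and 1.54 CPM in Taz-KD hearts, against 2.41, 1.95, 1.55, 2.14 and 2.53 CPM in WT hearts. The log2 fold change of 0.05 (adjusted p = 0.925) rested on Taz-KD heart 3, without which it was -0.36 (adjusted p = 0.189). The other box C/D snoRNAs of this group had log2 fold changes of 0.32 for Snord53, -0.05 for Snord104 and -0.19 for Snord71. Among H/ACA members Snora17 had 0.39 (adjusted p = 0.165), Snora30 0.23 and Snora2b 0.00.

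Of the 13 tested members with at least 500 counts, Taz-KD heart 3 was the highest Taz-KD heart for 9, and WT heart 5 the highest WT heart for 8. Over all 77 tested members no single library led so clearly: Taz-KD heart 3 was the highest Taz-KD heart for 24, Taz-KD heart 5 for 23 and Taz-KD heart 1 for 19, while WT heart 2 was the highest WT heart for 23 and WT heart 5 for 19. Mitochondrial ribosomal RNA took 1.39% of the counts in Taz-KD heart 3 and 0.597% to 0.971% in the other Taz-KD hearts, and it took 1.75% in WT heart 5 and 0.637% to 1.45% in the other WT hearts. The part of this difference between libraries in the values was not tested. All members together took 0.0235% to 0.0346% of the counts in Taz-KD hearts and 0.0215% to 0.0264% in WT hearts, so the ranges overlapped. Some other classes of RNA without a poly(A) tail were higher in Taz-KD hearts without overlap. Nuclear ribosomal RNA genes took 0.467% to 0.724% of the counts in Taz-KD hearts and 0.271% to 0.459% in WT hearts. Ribozyme genes took 0.394% to 0.50% in Taz-KD hearts and 0.307% to 0.340% in WT hearts. Mitochondrial tRNAs went the other way, with 0.0256% to 0.0415% in Taz-KD hearts and 0.0533% to 0.0689% in WT hearts. Small nuclear RNAs overlapped, with 0.00837% to 0.0092% in Taz-KD hearts and 0.00852% to 0.0102% in WT hearts, and so did Rn7sk. The part of these classes in the changes of the members was not tested.

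Of the 81 members, 47 lie in an intron of a same-strand host, 9 overlap a host exon, and 25 have no host on their strand. The 56 members with a host share 46 host genes. Among the 45 tested hosts 17 were higher and 3 lower in Taz-KD hearts, beside 14.4% and 10.3% of all genes tested, and 2441 and 1625 of the 14170 tested protein-coding genes with at least 100 counts. All 4 ribosomal protein hosts, Rpsa, Rps12, Rpl5 and Rps3a1, rose, with log2 fold changes of 0.63 to 0.91, and none of their 4 tested members passed the test (-0.04 to 0.62). Across 51 pairs of tested member and tested host, the fold changes were weakly related (Pearson's r = 0.30, Spearman's rho = 0.30; pairs share libraries, and 44 hosts make the 51 pairs).

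The 18 tested members whose host rose had a median log2 fold change of 0.06, whereas that of their hosts was 0.69. Of the 18, 17 lay below their host. These hosts were picked because they rose, and the difference between member and host was not tested. Among the 18, only Gm22442, Snora28, Gm24494 and Gm23130 lay above the 6.92 CPM per kilobase of the highest opposite-strand intron model. Snora28 and Gm23130 overlap a host exon, which that limit does not cover. The counts of the other members cannot be told apart from reads of the gene around them. None of the 18 was called. In 5 of these pairs the host lay outside the 95% interval of the member, as it did in 6 of the 30 pairs whose host was not called. Among these 5 members, Gm22200, Gm22362, Gm22154 and Gm25788 had 2.48 to 6.21 CPM per kilobase. They lay below the 6.92 of the highest opposite-strand intron model, so their counts cannot be told apart from intron reads. Snora28 had 12.1 CPM per kilobase. Hspa9, the mitochondrial chaperone mortalin, averaged 1346 ± 100.5 CPM in Taz-KD hearts and 521 ± 43.9 CPM in WT hearts (SD, n = 5 each; log2 fold change 1.37, adjusted p = 1.91e-07), while its intronic model Gm22200 averaged 0.513 ± 0.143 CPM in Taz-KD hearts and 0.320 ± 0.0668 CPM in WT hearts (0.68, 95% interval 0.11 to 1.25, adjusted p = 0.0803). Ybx3, a cold-shock domain protein gene, rose by 0.98 (adjusted p = 1.82e-06), and Gm22362 in it had -0.10 (95% interval -0.77 to 0.58). Pabpc4, a poly(A)-binding protein gene, rose by 0.87 (adjusted p = 1.93e-05), and its models Gm22154 and Gm25788, which are near copies of each other, had -0.23 and -0.25. Eif5, a translation initiation factor gene, averaged 217 ± 21.6 CPM in Taz-KD hearts and 120 ± 3.25 CPM in WT hearts (SD, n = 5 each; 0.85, adjusted p = 3.70e-06), and Snora28, which overlaps an Eif5 exon, measured 1.35 to 1.79 CPM in Taz-KD hearts and 1.01 to 1.80 CPM in WT hearts (0.07, 95% interval -0.31 to 0.44).

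Other hosts that rose were Odc1 (0.80), Tsr1 (0.74), Tpt1 (0.47), Rabggtb (0.44), Tomm20 (0.33), Ipo7 (0.31), Nap1l1 (0.27) and Kansl2 (0.22), on the log2 scale. Gm25117 in Nap1l1 had a log2 fold change of -0.43 (adjusted p = 0.502), and Gm26397 in Tomm20 and Snora23 in Ipo7 had 0.08 and 0.03. Snord91a in Tsr1, a ribosome assembly gene, had a log2 fold change of 0.73 (adjusted p = 0.0902), and Snora31 in Tpt1 had 0.74 (adjusted p = 0.173). Hosts that fell included Prrc2b and Sash1, with log2 fold changes of -0.21 and -0.18, and their members Gm25632 and Gm25410 had -0.50 and -0.10, neither called. Among hosts that were not called, 2 held a pair of tested members, namely Atg16l1 (0.01, adjusted p = 0.854) with Gm25395 (0.11) and Scarna6 (-0.28), and Cep295 with Scarna9 and Gm24339.

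**Figure D5:**
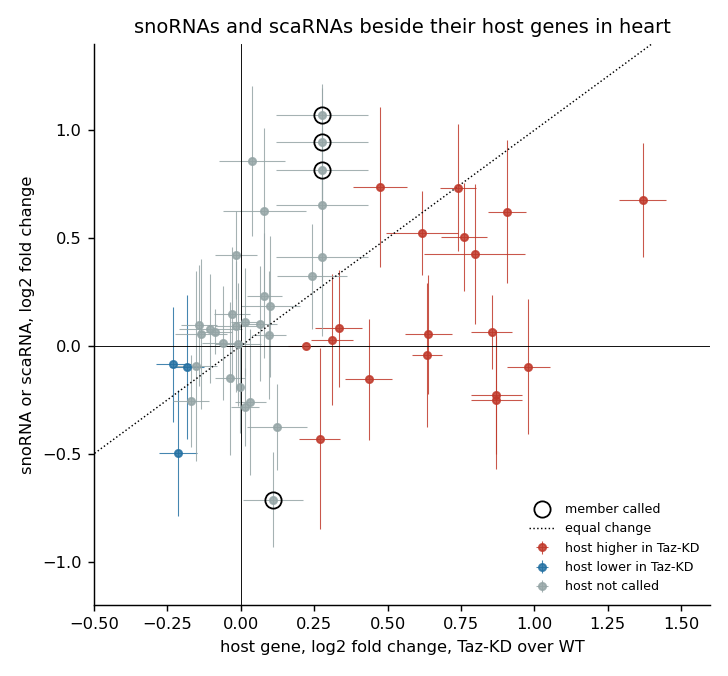
Log2 fold change (Taz-KD over WT, bars show SE) of each member against that of its host, for the 51 tested pairs. Members of hosts that rose (red) lie below the dotted line of equal change in 17 of 18 pairs, and the 3 circled members in Taf1d lie above it. Hosts in red were picked because they rose, and the difference between member and host was not tested.

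Genes whose products make, carry or use snoRNAs were examined in lists, whose counts stand beside 14.4% of all genes tested that rose and 10.3% that fell. Of the 4 box C/D core protein genes 3 rose: Fbl, the methyltransferase fibrillarin, averaged 15.4 ± 2.40 CPM in Taz-KD hearts and 10.9 ± 0.964 CPM in WT hearts (SD, n = 5 each; log2 fold change 0.49, adjusted p = 0.00524), Nop58 rose by 0.49 (adjusted p = 0.00331) and Snu13 by 0.19 (adjusted p = 0.0416), and Nop56 had 0.14 (adjusted p = 0.279). Of the 4 H/ACA core genes 1 rose. Nhp2 averaged 16.8 ± 2.05 CPM in Taz-KD hearts and 6.52 ± 0.543 CPM in WT hearts (SD, n = 5 each; 1.37, adjusted p = 1.17e-06), whereas Dkc1, the pseudouridine synthase dyskerin, had 0.12 (adjusted p = 0.304), Gar1 0.44 (adjusted p = 0.0703) and Nop10 0.10 (adjusted p = 0.567). Of 13 assembly and Cajal body genes 5 rose, namely Pih1d1 (0.62), Shq1 (0.56), Ruvbl1 (0.46), Coil (0.38) and Naf1 (0.28), and none fell. Of 6 tested genes of intron release and trimming 2 rose, Mtrex (0.20) and Parn (0.19), and the debranching enzyme gene Dbr1 had 0.11 (adjusted p = 0.590). Of 17 genes of RNA polymerase I and ribosomal RNA processing 6 rose, with Polr1e (0.68), Npm1 (0.64), Ncl (0.63), Rrn3 (0.45), Utp3 (0.32) and Polr1a (0.28), and none fell. Median log2 fold changes of these 5 lists were 0.34, 0.28, 0.22, 0.12 and 0.23, in this order, beside -0.02 over all genes tested.

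Of 8 small RNAs with their own promoter 4 were tested and 2 rose. Rmrp, the RNA of the nuclease MRP that cuts the ribosomal RNA precursor, averaged 1022 ± 229 CPM in Taz-KD hearts and 676 ± 50.4 CPM in WT hearts (SD, n = 5 each; log2 fold change 0.60, adjusted p = 0.00586). Rpph1, the RNA of RNase P, averaged 3619 ± 171 CPM in Taz-KD hearts and 2540 ± 115 CPM in WT hearts (SD, n = 5 each; 0.51, adjusted p = 0.000176). Rn7sk had 0.08 (adjusted p = 0.638) and Terc 0.39 (adjusted p = 0.447). The members were set beside these lists without a test of the difference between them.

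Few members were measured in femur muscle. All 81 together took 0.000667% to 0.000892% of the counts in Taz-KD muscle and 0.000782% to 0.00104% in WT muscle, 12 of the 81 reached 100 counts over the 10 muscle libraries, and 25 had none. The tailless nuclear RNA Rn7sk measured 0.0196 to 0.492 CPM in Taz-KD muscle and 0.210 to 0.374 CPM in WT muscle and 7989 to 11240 CPM in Taz-KD hearts and 8391 to 9818 CPM in WT hearts. Protein-coding genes took 97.8% to 98.7% of the counts in muscle libraries and 88.4% to 90.4% in heart libraries. The muscle values go against ribosomal RNA depletion alone and look like those of RNA selected for poly(A), so levels were not compared between the tissues. The counts also covered 53801 genes in muscle and 47069 in heart. Among opposite-strand models only in introns of genes above 5 CPM per kilobase, 21 of 34 had no count in muscle, against 0 of 62 in heart. The part of annotation and strand handling in the members missing from muscle was not tested. Of the 15 members with an exon of another gene over them 13 had no count in muscle, and of the other 66 members 12 had none. Scarna2 had 9 counts in muscle, whereas Snora31 had 601. No member was called in muscle, where 12 were tested and 0 of the 12 had an unadjusted p under 0.05 in edgeR, and DESeq2 called none either. The background was equally low, with 0.0124% of all genes tested in muscle higher and 0.00619% lower. At an unadjusted p under 0.05 in edgeR there were 2408 of the 16145 genes tested in muscle. The study, with DESeq2, reported differentially regulated genes in skeletal muscle and a substantial overlap with heart. The few calls here therefore do not show an unchanged muscle. The log2 fold changes of the 12 members in muscle ran from -0.53 to 0.42.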

How the data were processed

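Hearts and femur muscle of Taz-KD and WT mice (n = 5 each) were measured. Per the protocol given with the series, ribosomal RNA was removed and strand-marked libraries were prepared. The muscle values go against ribosomal RNA depletion alone. The authors aligned read pairs of 150 bp to mm10/GRCm38 with STAR and counted them per gene with featureCounts 1.6.4. The deposited values are unnormalized counts per gene, and all 20 columns were used. How strand and multimapping reads were handled, and which annotation release was used, is not given in the sources used here. The authors' own DESeq2 2.11.40.6 results were not used.

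Gene types, positions, exons and sequences came from GENCODE M21 (GRCm38), to which 46574 of 47069 heart genes matched, and RefSeq entries of the same build were matched by position (71 of 81 members had one). Genes were filtered with filterByExpr and tested with edgeR 4.0.16 in R 4.3.3 (TMM, robust quasi-likelihood test, Benjamini-Hochberg adjustment over all genes tested, threshold 0.05). The SE was derived from the F statistic. The step was tested on simulated data. Each library came from 1 mouse, and p-values measure the spread between these mice. Total counts per heart library, 26963288 to 35301909, set the precision.

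Members and lists were chosen with earlier results of these data known. A host is a same-strand gene of another type that spans the member, the most abundant where several do. Named with values were the largest called changes at 1 CPM or more without overlap, the 5 most abundant members of each class per kilobase, the extremes of hosts with 3 or more members, their hosts and the listed genes. All called members and all members in Taf1d were added after their values were seen, as were the levels of models by strand and the hosts that lay outside a member's interval. A near copy differs in at most 5% of bases. Alternatives were DESeq2 1.42.0, limma-voom (limma 3.58.1), other scalings and filters, other count limits and leaving out libraries.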

Additional observations from a re-analysis of the deposited data

Results flagged for a closer look

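Within groups of 5 libraries, 4 of the values of named genes lay far from the others of their genotype (Dixon's ratio above 0.710). Chance flags about 1 in 20 groups and 58 groups were looked at, so a few flags are expected by chance. Snord17 measured 4.34 CPM in Taz-KD heart 3, against 1.43 to 1.95 CPM in the other Taz-KD hearts. Gm24357 in Taf1d measured 4.87 CPM in the same heart, against 1.54 to 2.15 CPM in the other Taz-KD hearts, and its log2 fold change of 0.66 was 0.26 without that heart. In WT heart 4, Gm22579 measured 1.30 CPM, against 0.901 to 0.977 CPM in the other WT hearts, and Gm24299 measured 0.525 CPM, against 0.243 to 0.322 CPM. Both models lie in Taf1d. Without WT heart 4 the rise of Gm22579 in Taz-KD hearts was still called.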

How the results depend on the processing

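No paired analysis was possible because the labels name each mouse by its own number and give the genotypes no shared replicate numbers. The median log2 fold change of the members was 0.02 to 0.10 under every setting but the limit of 1000 counts, and 0.03 to 0.10 when each library was left out in turn. DESeq2 called 8 members higher. With at least 10 counts required in every library, 3 were higher and 1 lower of 44 tested, and with no filter 0 were lower. With a limit of 1000 counts, 1 was higher and 0 lower among 7 tested members, and their median was 0.37. Without the hearts R2 (Taz-KD heart 1) and R3 (WT heart 1), whose mouse numbers stand apart from the rest, 1 was lower, Gm23034 and Gm24233 were lost and Scarna2 was gained (adjusted p = 0.0241). Leaving out each library in turn gave 4 to 7 higher and 0 to 2 lower members. Settings chosen after seeing the data gave 1 higher member among those with no exon of another gene over them (4 of the 5 rises have one), 2 higher without the members in Taf1d, and 1 lower among members without a near copy. Gm23455, Gm22579 and Gm27991 were called under all 20 settings fitted, Gm23034 under 18 of 19, Gm24455 under 17 of 19, Gm22554 under 12 of 19 and Gm24233 under 12 of 20. No named call reversed its direction. Over all genes, 2268 to 2904 were higher and 1501 to 2511 lower. The search for sequences that occur once in the genome was not run here, and near copies among annotated models were used instead.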

Other observations

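Other small RNAs of the same heart libraries, taken at the same limit of 100 counts, were described beside the snoRNAs. Of 77 tested small nuclear RNAs 1 was higher and 2 were lower in Taz-KD hearts, with a median log2 fold change of -0.08. Of 121 tested miRNA genes 2 were higher and 5 lower (median -0.11), and of 61 tested genes of the class misc_RNA 2 were higher and 2 lower (median -0.08). Among 8 tested mitochondrial tRNAs 4 were lower and none higher (median -0.42). Mitochondrial tRNAs took 0.0256% to 0.0415% of the counts in Taz-KD hearts and 0.0533% to 0.0689% in WT hearts, so the genotypes lay apart. The 2 mitochondrial ribosomal RNAs were not called, and of 7 nuclear ribosomal RNA genes 2 were higher. Per the protocol given with the series, these libraries were made from RNA depleted of ribosomal RNA, and tRNAs are shorter than the reads.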
